A study of Mus musculus with 6 samples.

Results

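The constant region genes of the mouse antibody heavy chains, the kappa light chain constant region Igkc and the joining chain Jchain were followed in RNA sequencing of peritoneal endothelial cells (ECs) from mice given peritoneal dialysis (PD) fluid or saline. The members were taken by symbol: Ighm, Ighd, Ighg1, Ighg2b, Ighg2c, Ighg3, Igha, Ighe, Igkc and Jchain, which are 10 of the 22183 genes in the count table, each with 1 row. All 10 passed the filter on low counts, which left 14005 genes for testing. Each group held 3 male wild-type C57BL/6J mice, with 1 library per mouse. The methods give an age of 8 to 10 weeks and do not say whether it holds for the start of the injections. Saline mice and PD mice were injected into the peritoneal cavity every day for 6 weeks, the former with saline and the latter with a glucose-based PD fluid. None carried a transgene or deletion, and both groups share the repeated injection. No uninjected mice were analysed here.

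The labels describe magnetic selection of CD31+ cells from the peritoneum, whereas the study's methods describe digestion of the mesentery and sorting of CD31+ CD45- cells by flow cytometry. Pecam1, which encodes CD31, averaged 469 ± 19.4 CPM, counts scaled to the library total, in the 3 saline mice against 514 ± 7.85 in the 3 PD mice (SD). Ptprc, which encodes CD45 of all leukocytes and should be low after a CD45- gate, averaged 2373 ± 127 CPM in the former and 1473 ± 63.6 CPM in the latter, above Pecam1 in both groups. The libraries therefore held leukocyte RNA, and the antibody genes are described as part of the sorted material and not as genes of the ECs.

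An antibody is made of heavy and light chains, and the constant region of the heavy chain sets its class. A naive B cell makes IgM and IgD from the same heavy chain transcript by splicing, and class switch recombination can later replace the Ighm and Ighd segments by a constant region further downstream, giving IgG, IgE or IgA. Plasma cells secrete antibody and hold far more of its mRNA per cell than resting B cells. The joining chain links monomers into the IgM pentamer and the IgA dimer. The peritoneal cavity and its fat are known for B-1 cells, which make natural IgM without T cell help. Counts per gene do not separate the membrane from the secreted form of a heavy chain.

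In the GRCm38 build with GENCODE M21 annotation the 8 heavy chain genes lie on the minus strand of chromosome 12. In the order of transcription they are Ighm (chr12:113418558-113422730), Ighd (chr12:113406604-113416324), Ighg3 (chr12:113356224-113361232), Ighg1 (chr12:113325240-113330523), Ighg2b (chr12:113302965-113307933), Ighg2c (chr12:113285325-113288932), Ighe (chr12:113269260-113273248) and Igha (chr12:113254830-113260236). Igkc lies on the plus strand at chr6:70726435-70726966 and Jchain on the minus strand at chr5:88519809-88527891. The 4 IgG genes are close relatives, so their coding sequences were compared to see how far reads could be shared between them. Ighg2b and Ighg2c were identical at 85.9% of aligned bases, and the other pairs at 74.9% to 76.9%.

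The coding stretch of 60 bases in which the 4 IgG genes are most alike is shown first, since a read inside it could not be placed between Ighg2b and Ighg2c. Capitals mark bases that differ from Ighg2b, and 50 of the 60 columns are identical in all 4 genes. In the order below, the windows are chr12:113306879-113306938, chr12:113287879-113287938, chr12:113360155-113360214 and chr12:113329475-113329534, all read from the minus strand.
Ighg2b: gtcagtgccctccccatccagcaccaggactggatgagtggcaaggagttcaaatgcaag
Ighg2c: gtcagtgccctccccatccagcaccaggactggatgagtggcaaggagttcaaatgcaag
Ighg3: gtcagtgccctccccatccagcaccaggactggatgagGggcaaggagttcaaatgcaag
Ighg1: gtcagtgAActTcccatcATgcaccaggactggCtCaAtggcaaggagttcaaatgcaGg

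The stretch in which they are least alike is shown for contrast, with 24 of 60 columns identical in all 4 genes and capitals again marking differences from Ighg2b. These windows are chr12:113306446-113306505, chr12:113287446-113287505, chr12:113359722-113359781 and chr12:113329033-113329092.
Ighg2b: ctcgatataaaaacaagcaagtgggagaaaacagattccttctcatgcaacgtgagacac
Ighg2c: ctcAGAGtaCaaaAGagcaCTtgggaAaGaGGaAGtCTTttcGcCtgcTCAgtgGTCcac
Ighg3: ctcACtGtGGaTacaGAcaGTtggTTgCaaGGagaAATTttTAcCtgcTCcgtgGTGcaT
Ighg1: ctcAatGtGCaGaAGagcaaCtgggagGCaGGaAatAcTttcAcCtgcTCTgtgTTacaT

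The longest coding stretch shared without a mismatch was 78 bases between Ighg2b and Ighg2c and 28 to 41 bases between the other IgG pairs. Of all stretches of 50 bases, 5.85% of those in Ighg2b also occurred in Ighg2c, and 4.82% of those in Ighg2c also occurred in Ighg2b. None of Ighg1 or Ighg3 occurred in another IgG gene. No stretch of 100 bases was shared by any pair. The read length is not given in the sources used here, so a small exchange of reads between Ighg2b and Ighg2c remains possible, and the split between that pair is uncertain to that degree.

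Libraries held 21973426 to 26374292 gene counts. The 10 members took 1.83% ± 0.07 of all counts in saline mice and 1.77% ± 0.05 in PD mice (n = 3 each), ranges that overlapped. Their makeup differed between the groups: in PD mice the IgM heavy chain, Ighg1, Ighg3, Igha and Jchain rose, Ighd, Ighg2b, Ighg2c and Ighe fell, and Igkc did not pass the test. These directions are relative to all tested genes, and when libraries were scaled to 12 endothelial markers instead, 0 members were higher and 8 were lower, beside 8.55% and 71.5% of all tested genes. Across all genes tested, 31.1% were higher and 27.8% lower in PD mice, so 5 of 10 higher and 4 of 10 lower describe the members and do not set them apart. The median log2 fold change was 0.03 over the members and 0.02 over all genes tested. In bulk libraries fewer cells of a type and less RNA per cell cannot be told apart.

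**Figure D1:**
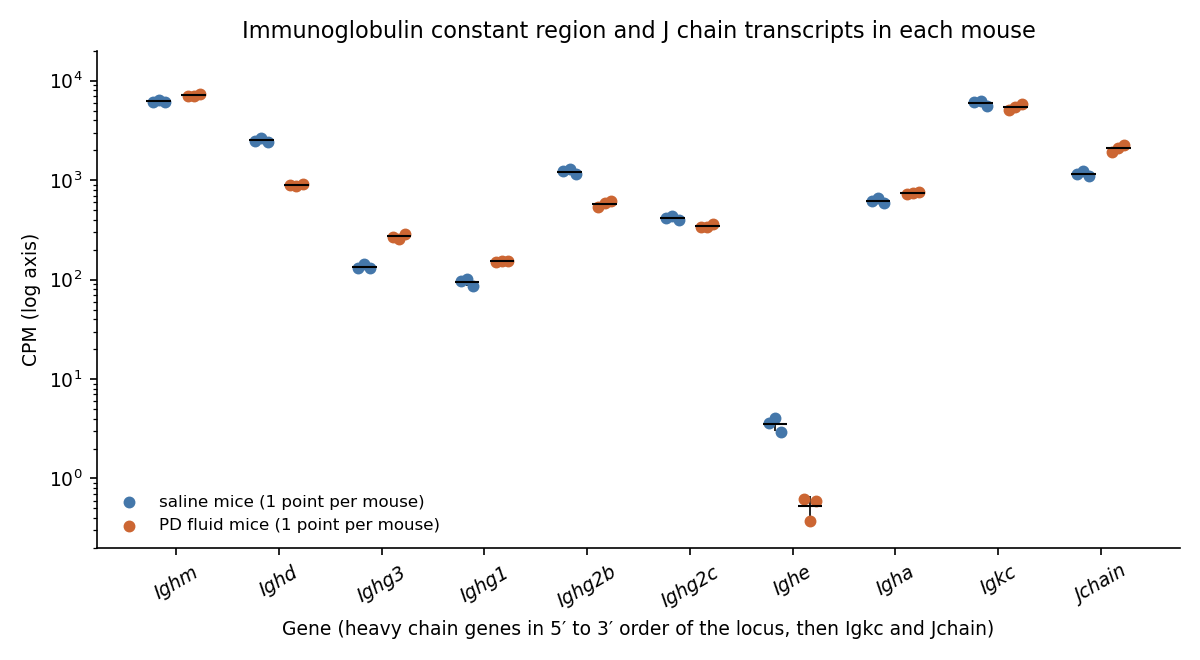
Level of each member in every mouse, in CPM on a log axis, with points for the 3 saline and 3 PD mice and lines at the group means. The groups are separate for every member except Igkc, and Ighe lies far below the others, at 0.38 to 4.10 CPM.

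Ighm, the heavy chain of IgM, had 6121, 6369 and 6084 CPM in the 3 saline mice and 6960, 7006 and 7365 CPM in the 3 PD mice. Every PD mouse lay above every saline mouse, as was also the case for 34.0% of all tested genes, and every PD mouse lay below every saline mouse for 31.6%. The means were 6191 ± 155 and 7110 ± 222 CPM, a ratio of 1.15. The log2 fold change was 0.20 (SE 0.06, adjusted p = 0.0162 by edgeR's quasi-likelihood test), with a 95% interval from 0.06 to 0.33. The call was lost without saline replicate 1 (adjusted p = 0.0691) and without PD replicate 2 (adjusted p = 0.0548). With scaling to the endothelial markers the value turned to -0.75 (adjusted p = 3.38e-06).

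Ighd, the heavy chain of IgD on mature naive B cells, had 2480, 2633 and 2418 CPM in saline mice against 884, 875 and 913 CPM in PD mice. All PD values were below all saline values, with means of 2511 ± 111 and 891 ± 20.1 CPM. Ighd fell by 1.50 on the log2 scale (SE 0.06, adjusted p = 8.21e-09), and 9.06% of tested genes had a larger change in either direction. Relative to all tested genes the pair that naive B cells transcribe together moved in opposite directions, whereas with scaling to the endothelial markers both were lower (Ighd -2.45). The ratio of Ighm to Ighd in FPKM, a read level corrected for gene length and library size, was 2.72 ± 0.06 in saline mice and 9.24 ± 0.11 in PD mice, a 3.40-fold difference, and no scaling of the libraries can alter this ratio within a library.

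Among the IgG genes, Ighg3, whose product is known from responses to polysaccharides without T cell help, had 132, 143 and 130 CPM in saline mice and 266, 258 and 291 CPM in PD mice. Its level was 2.01-fold higher, with every PD mouse above every saline mouse and a log2 fold change of 1.01 (SE 0.07, adjusted p = 5.3e-07). Scaling to the endothelial markers left a difference of 0.05 (adjusted p = 0.63). Ighg1, the subclass linked to IL-4, had 96.7, 101 and 85.8 CPM in saline mice and 152, 152 and 153 CPM in PD mice. The means were 94.5 ± 7.85 and 152 ± 0.75 CPM, without overlap, and the log2 fold change was 0.69 (SE 0.07, adjusted p = 1.49e-05). This direction also turned with scaling to the endothelial markers, to -0.26 (adjusted p = 0.0241).

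Ighg2b, the most abundant IgG gene in both groups and the subclass linked to TGF-β, had 1223, 1295 and 1140 CPM in saline mice and 543, 582 and 614 CPM in PD mice. It was 2.10-fold lower in PD mice, with no overlap, and fell by 1.07 on the log2 scale (SE 0.07, adjusted p = 3.84e-07). Ighg2c, the C57BL/6 counterpart of IgG2a and linked to interferon-γ, had 420, 435 and 398 CPM in saline mice and 336, 338 and 365 CPM in PD mice. These groups did not overlap either, but the difference was small, with a ratio of 0.829 and a log2 fold change of -0.27 (SE 0.06, adjusted p = 0.00338). The pair that shares the longest identical stretches differed in size of change: the FPKM ratio of Ighg2b to Ighg2c was 2.82 ± 0.06 in saline mice and 1.61 ± 0.05 in PD mice.

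Igha, the heavy chain of IgA of mucosal surfaces, had 612, 661 and 584 CPM in saline mice and 722, 750 and 767 CPM in PD mice. Its groups were separate, with means of 619 ± 39.2 and 747 ± 22.4 CPM, and the log2 fold change was 0.27 (SE 0.06, adjusted p = 0.0041). With scaling to the endothelial markers it was -0.68 (adjusted p = 7.37e-06). Ighe, the heavy chain of IgE that arms mast cells and basophils, was the least abundant member. It had 93, 89 and 71 counts in saline mice and 17, 9 and 13 counts in PD mice, or 3.63, 4.10 and 2.94 CPM against 0.63, 0.38 and 0.59 CPM. Ighe was 6.71-fold lower in PD mice and its log2 fold change of -2.73 (SE 0.30, adjusted p = 2.45e-05) had the widest error of the members; 2.25% of tested genes had a larger change.

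Igkc, the constant region of the kappa light chain that most mouse antibodies carry, had 6107, 6315 and 5611 CPM in saline mice and 5019, 5383 and 5885 CPM in PD mice. PD replicate 3 lay within the saline range. The means were 6011 ± 362 and 5429 ± 435 CPM, and the log2 fold change of -0.15 (SE 0.08, adjusted p = 0.12) did not pass the threshold. Its 95% interval allowed a ratio from 0.803 to 1.02. Without PD replicate 3 it was called lower (log2 fold change -0.20, adjusted p = 0.0337). Igkc overlaps the annotated gene Gm30211 on the same strand, which had no row in the table.

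Jchain, the joining chain, had 1149, 1225 and 1107 CPM in saline mice and 1924, 2122 and 2274 CPM in PD mice. All PD values exceeded all saline values, with means of 1161 ± 59.9 and 2106 ± 175 CPM, a ratio of 1.81 and a log2 fold change of 0.86 (SE 0.07, adjusted p = 3.48e-06). In FPKM, Jchain stood at 0.191 ± 0.004 of the sum of Ighm and Igha, the 2 heavy chains it joins, in saline mice and at 0.288 ± 0.016 in PD mice. Scaling to the endothelial markers gave -0.09 (adjusted p = 0.459) for Jchain.

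Levels between genes were compared in FPKM. Igkc was the most abundant member in both groups, with 11253 ± 594 FPKM in saline mice and 10223 ± 545 FPKM in PD mice, and ranked 2 among all genes in both. Ighm followed, with 3791 ± 59.7 and 4598 ± 61.0 FPKM. In saline mice the order below them was Ighd (1394 FPKM), Ighg2b (1055), Jchain (830), Igha (542), Ighg2c (374), Ighg3 (116), Ighg1 (81.1) and Ighe (2.59), with no overlap between neighbours. In PD mice Jchain (1515 FPKM) and Igha (670) came before Ighg2b (504) and Ighd (497), whose ranges overlapped, followed by Ighg2c (312), Ighg3 (245), Ighg1 (135) and Ighe (0.390).

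As shares of the summed heavy chain FPKM, Ighm made up 51.6% ± 0.8 in saline mice and 66.0% ± 0.2 in PD mice. Ighd went from 18.9% ± 0.2 to 7.15% ± 0.10, and Ighg2b from 14.3% ± 0.4 to 7.24% ± 0.25. The share of Igha was 7.36% ± 0.19 in saline mice and 9.63% ± 0.17 in PD mice. Each of the 8 shares was separate between the groups. The 6 switched isotypes together held 29.5% ± 0.7 in saline mice and 26.8% ± 0.3 in PD mice, a ratio of 0.909. Computed from counts, which favour longer genes, the share of Ighd was 22.4% ± 0.2 and 8.82% ± 0.12, and that of the switched isotypes 22.2% ± 0.6 and 20.8% ± 0.2. These shares are bound to sum to the whole, so a higher share of one gene lowers the rest.

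**Figure D2:**
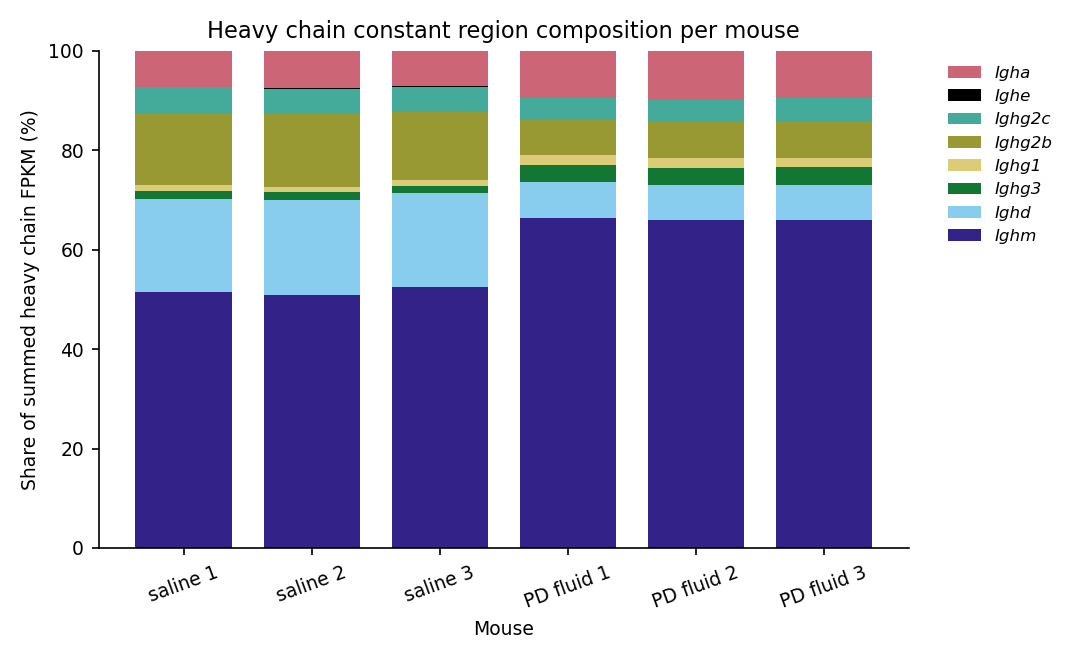
Makeup of the heavy chain constant regions in each of the 6 mice, as percent of the summed heavy chain FPKM. Ighm spans 50.8% to 52.4% in saline mice and 65.9% to 66.3% in PD mice, and the Ighd segment is narrower in every PD mouse; Ighe is too small to be seen.

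Within the IgG genes alone, Ighg2b fell from 64.8% ± 0.3 to 42.2% ± 0.9 of the IgG FPKM, while Ighg3 went from 7.16% ± 0.15 to 20.4% ± 0.6, Ighg1 from 4.98% ± 0.15 to 11.3% ± 0.5 and Ighg2c from 23.0% ± 0.4 to 26.1% ± 0.3. There were 9.05 ± 0.22 FPKM of Ighg2b for each FPKM of Ighg3 in saline mice and 2.06 ± 0.10 in PD mice. Kappa FPKM per summed heavy chain FPKM overlapped between the groups, at 1.53 ± 0.05 and 1.47 ± 0.07. Along the locus the IgG genes nearest to Ighm, Ighg3 and Ighg1, had the higher levels in PD mice and the next, Ighg2b, Ighg2c and Ighe, the lower ones, while Igha at the far end was higher.

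The members were next set against the B cells in the libraries. Of 12 B cell markers, 0 were higher and 11 lower in PD mice, with a median log2 fold change of -1.10, and their summed level ranged from 7844 to 8104 CPM in saline mice and from 3733 to 3761 CPM in PD mice. On average the B cell markers stood at 8.66 ± 0.02 on the log2(CPM + 1) scale in saline mice and 7.67 ± 0.02 in PD mice. On the same scale, the level of Jchain minus that of the markers was 1.52 ± 0.10 in saline mice and 3.37 ± 0.14 in PD mice, a difference of 1.85. The corresponding differences were 1.99 for Ighg3, 1.68 for Ighg1, 1.26 for Igha, 1.19 for Ighm, 0.84 for Igkc and 0.72 for Ighg2c, all without overlap. This separation does not set the members apart, since the mean of the markers differed by -0.99 and its subtraction raises every gene alike. With libraries scaled to these markers, 92.1% of all tested genes were called higher. Ighd (-0.50) and Ighe (-0.58) were lower relative to the markers too, but at the low level of Ighe the added 1 CPM shrinks its difference. For Ighg2b the values overlapped, at 1.59 ± 0.11 and 1.51 ± 0.11, so its fall was of the size of that of the B cell markers. The choice of reference decides some directions. Of 5 genes listed as plasma cell markers the mean level was 5.31 in saline mice and 5.26 in PD mice. Set against that mean, Ighg2c (-0.22) and Ighg2b (-1.02) were lower without overlap, and Igkc gave -0.10 with overlapping groups. The flat mean joins opposed log2 fold changes, -0.62 for Mzb1 and -0.81 for Pou2af1 but 0.52 for Xbp1 and 0.57 for Derl3. It is therefore a mixed reference and not a measure of plasma cells. The rare Tnfrsf17 (0.26) was not called.

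When the libraries were scaled to these B cell markers in the edgeR fit, 7 members were higher and 2 lower, but so were 92.1% and 0.428% of all tested genes. Ighg2c (0.73, adjusted p = 1.27e-06) and Igkc (0.85, adjusted p = 1.74e-06) then changed direction, Ighd (-0.50) and Ighe (-1.74) were the members called lower, and Ighg2b gave -0.07 (adjusted p = 0.403). The scalings to B cell and endothelial markers shifted the median log2 fold change of all genes by 1.00 and by -0.95, and differences between members within a library are nearly the same under each.

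**Figure D3:**
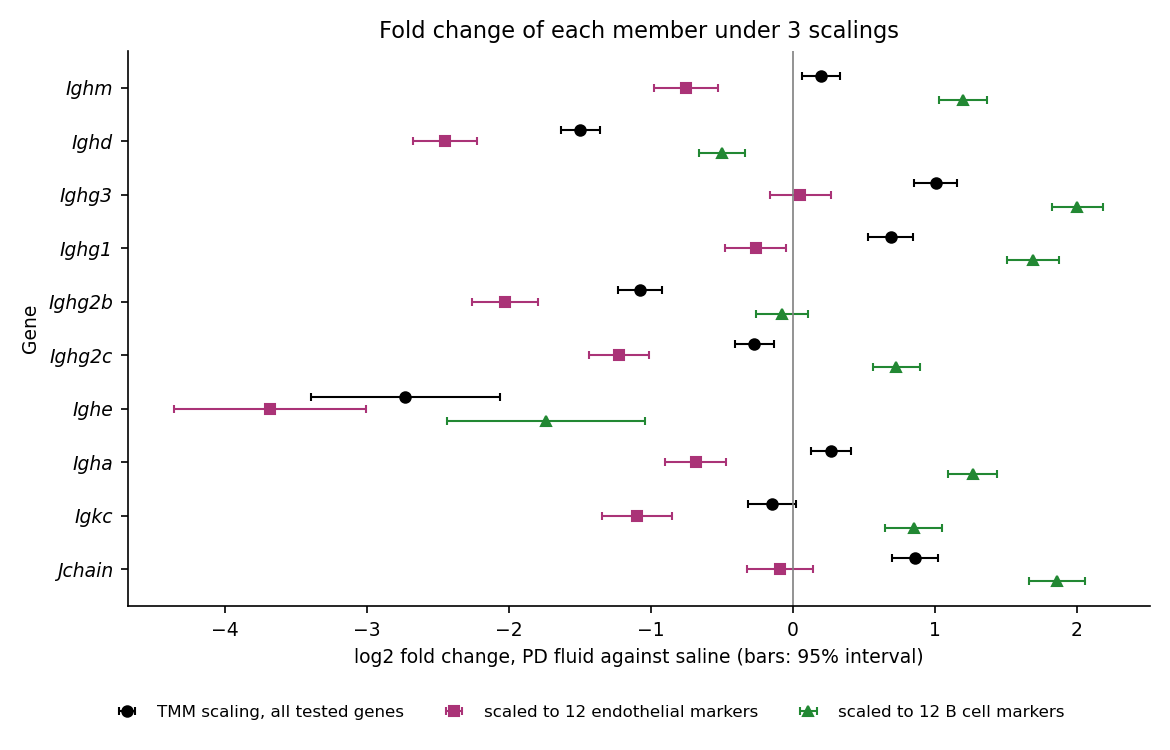
Log2 fold change of each member in PD mice against saline mice with its 95% interval, under the scaling to all tested genes (circles), to 12 endothelial markers (squares) and to 12 B cell markers (triangles). Ighd, Ighe and Ighg2b lie below 0 and Ighg3 above 0 under each scaling. The interval includes 0 for Ighg2b with the B cell markers (-0.07) and for Ighg3 with the endothelial markers (0.05). Ighm, Ighg1, Igha and Jchain cross from above 0 to below with the endothelial markers, and Ighg2c and Igkc cross to above with the B cell markers.

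Other cell types differed between the groups as well, and their part in the results on the members was not tested. The 12 endothelial markers summed to 1195 to 1211 CPM in saline mice and 1908 to 2018 CPM in PD mice, with 11 higher and 0 lower. Of 8 T cell markers 5 were lower, from 2536 to 2630 CPM in saline mice against 1982 to 2197 CPM in PD mice. All 8 macrophage markers were higher, from 2124 to 2252 CPM against 8684 to 9409 CPM, as were all 6 mesothelial and all 6 fibroblast markers (median log2 fold changes 3.68 and 3.29) and 4 of 5 tested neutrophil markers. The 8 pancreatic acinar markers summed to 1.13 to 3.00 CPM in saline mice and 8841 to 9607 CPM in PD mice, so PD libraries also held RNA of a tissue that the saline libraries nearly lacked.

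Genes around antibody production were then counted by role, in lists of 80 genes of which 77 were tested. Of these 23 were higher and 37 lower in PD mice, with a median log2 fold change of -0.30. The 37 include the 11 lower B cell markers. Beside these counts and those of the single lists below stand 31.1% higher and 27.8% lower among all tested genes. Among the B cell markers the largest changes were those of Bank1, a B cell receptor scaffold, with 763 ± 54.7 and 277 ± 11.7 CPM (log2 fold change -1.46, adjusted p = 2.55e-08), of Cr2, the complement receptor CD21 (340 and 141 CPM), and of Cd79b, a signalling chain of the B cell receptor (1382 and 598 CPM). The 4 genes linked to B-1 cells were mixed, with Bhlhe41 at 25.2 ± 2.93 and 14.0 ± 3.25 CPM (log2 fold change -0.85, adjusted p = 8.96e-04) and Spn, which T cells express too, at 11.3 ± 0.62 and 15.1 ± 0.72 CPM (0.41, adjusted p = 0.00956), and the other 2 did not pass.

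Of 20 plasma cell and secretion genes 8 were higher and 7 lower, with a median log2 fold change of 0.06. Prdm1, which encodes the plasma cell regulator Blimp-1, rose from 11.1 ± 1.70 to 21.6 ± 1.79 CPM (log2 fold change 0.95, adjusted p = 1.21e-04). Tnfrsf13b, the TACI receptor of B cells and plasma cells, fell from 310 ± 10.2 to 148 ± 2.55 CPM (-1.07, adjusted p = 7.93e-08), and Eaf2, an elongation factor partner found in germinal centre and plasma cells, from 9.67 ± 1.01 to 5.23 ± 0.97 CPM (-0.89, adjusted p = 0.00112). Named after their values were seen, Xbp1, the driver of the secretory programme in plasma cells and other secretory cells, was at 286 and 409 CPM (0.52, adjusted p = 2.44e-05) and Mzb1, an endoplasmic reticulum protein of antibody assembly, at 122 and 79.6 CPM (-0.62, adjusted p = 2.45e-05). Xbp1 is abundant in acinar cells and Prdm1 is made by macrophages and T cells too, so neither is specific to plasma cells in these libraries.

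None of the 15 class switch genes was higher and 10 were lower, with a median log2 fold change of -0.41. The DNA end-protection gene Shld2 (30.8 and 18.3 CPM) and the end-joining gene Xrcc4 (40.0 and 27.6 CPM) fell, with adjusted p = 5.01e-04 and 0.00226. Both fell by less than the B cell markers' median of 1.10. Most of these repair genes are used by every cell type.

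The ligands that direct switching or keep plasma cells alive were mixed. Of 10 tested, 6 were higher and 2 lower, with a median log2 fold change of 1.02. The 2 lower, named after their values were seen, were Il21 (-1.34, adjusted p = 3.24e-04) and Cd40lg (-0.42, adjusted p = 0.036). Il6, a survival factor of plasma cells, rose from 2.81 ± 0.62 to 22.6 ± 1.67 CPM (3.01, adjusted p = 8.67e-08). Il10, an inhibitory cytokine that also acts on B cells, rose from 2.95 ± 0.77 to 10.2 ± 0.12 CPM (1.80, adjusted p = 1.83e-05), and Il5, a growth factor of B-1 cells and eosinophils, from 0.326 ± 0.077 to 1.40 ± 0.51 CPM (2.09, adjusted p = 0.00213). For the cytokines linked above to single IgG subclasses, named after their values were seen, Il4 gave 0.80 (adjusted p = 0.0875), Ifng 0.22 (adjusted p = 0.437) and Tgfb1 0.64 (adjusted p = 0.0442). Tgfb1 overlapped between the groups, at 2.54 to 5.09 CPM in saline mice and 4.99 to 6.73 CPM in PD mice. Il4 did not overlap but was rare, at 0.47 to 1.45 CPM over all mice. Il5 was rare too, with 7 to 9 counts in saline mice and 23 to 41 counts in PD mice.

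Among 12 receptors and transporters of antibodies 7 were higher and 3 lower, with a median log2 fold change of 0.94. The activating IgG receptors led: Fcgr4 rose from 3.65 ± 0.55 to 22.1 ± 1.58 CPM (2.59, adjusted p = 9.24e-08), Fcgr3 from 115 ± 3.69 to 523 ± 42.1 CPM (2.19, adjusted p = 1.67e-09) and Fcgr1 from 4.60 ± 0.65 to 19.2 ± 1.86 CPM (2.06, adjusted p = 6.68e-07). These receptors are expressed by macrophages, whose markers rose beside them. The 3 lower genes, named after their values were seen, were Fcmr, the IgM receptor of B cells (970 and 486 CPM), Fcer2a, the low-affinity IgE receptor of B cells (574 and 263 CPM), and Pigr, which carries J chain-bound antibody across epithelia (5.19 and 3.43 CPM).

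The lambda light chains differed among themselves. Iglc1 rose from 335 ± 23.6 to 850 ± 96.0 CPM (log2 fold change 1.35, adjusted p = 3.42e-07), while Iglc2 fell from 882 ± 44.2 to 602 ± 51.9 CPM (-0.55, adjusted p = 9.64e-05) and the rare Iglc4 from 0.592 ± 0.086 to 0.132 ± 0.077 CPM (-2.08, adjusted p = 0.0085). Iglc3, the remaining constant region and named after its values were seen, went from 617 ± 33.3 to 479 ± 51.0 CPM (-0.36, adjusted p = 0.00265). Iglc2 and Iglc3 share 14.4% and 14.3% of their coding stretches of 50 bases with each other, so their split is uncertain, whereas Iglc1 shared no more than 19 bases in a row with either. Iglc1, Iglc2 and Iglc3 together took 23.4% ± 0.2 of the light chain constant region counts in saline mice and 26.2% ± 0.4 in PD mice.

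**Figure D4:**
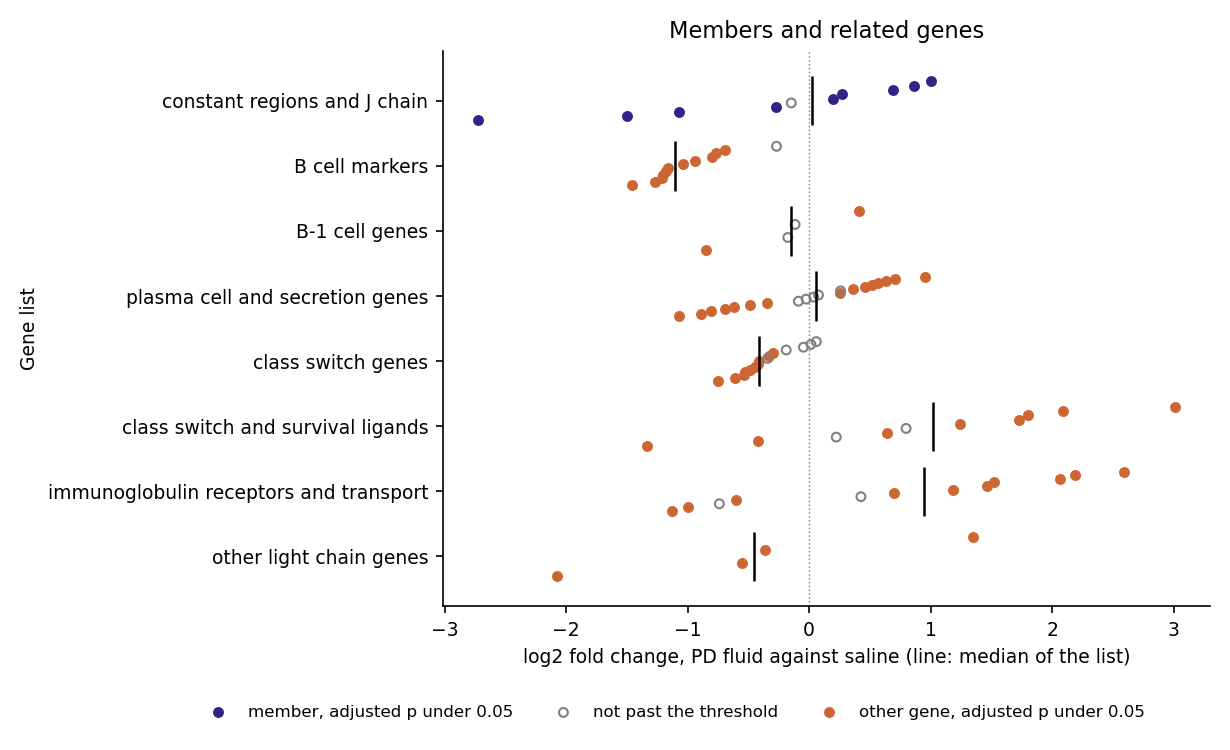
Log2 fold change of the members and of each tested gene in the lists of related genes, PD mice against saline mice, 1 point per gene with filled points past the threshold and a line at each list's median. B cell markers and class switch genes lie mostly below 0 and ligands and antibody receptors mostly above, while the members spread from -2.73 to 1.01; with scaling to the endothelial markers all points move down by about 0.95 and with scaling to the B cell markers up by about 1.00.

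The genes most like 3 of the members over the 6 libraries were found by Pearson correlation of log2(CPM + 1), leaving out the antibody loci. For Igkc they were Rbm18 (r = 0.998), Larp4 (0.995) and Pdcd6 (0.995), for Ighm Rcn3 (0.998), Dram2 (0.998) and Tsen34 (0.998), and for Jchain Rgcc, Itgb1 and Trip10 (each 0.999). The points share their libraries and their group means, and r exceeded 0.99 for 8 genes with Igkc, 42 with Ighm and 246 with Jchain, so many other genes had nearly the same pattern.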

How the data were processed

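Polyadenylated RNA of 6 sorted cell samples was sequenced, and the authors deposited a table of raw counts and of FPKM per gene and sample. The submitters' processing notes name fastp 0.18.0, Bowtie2 2.2.8, HISAT2, StringTie 1.3.1 and RSEM; the genome build and annotation are not given in the sources used here. Pooled FPKM means and columns with the authors' own fold changes and p-values were not used; 0 sample columns were unmatched.

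Counts were tested with edgeR 4.0.16 in R 4.3.3 (filterByExpr, TMM, quasi-likelihood, no covariates) over 14005 genes, with Benjamini-Hochberg adjustment at 0.05. Error values are SD over mice (n = 3). Libraries totalled 21973426 to 26374292 counts. CPM divides by these totals times the TMM factors (0.977 to 1.03), so that 3 counts correspond to 0.110 to 0.138 CPM. FPKM served to compare genes within libraries and was not tested. With 3 mice against 3, an exact permutation test could not go below p = 0.1, so none was run. Same-group libraries differed beyond sampling noise (chi-square per gene 6.46 to 17.8). Each library is labelled as a separate replicate, and the methods describe separate mice. Sequences and coordinates came from GRCm38 with GENCODE M21, matched by gene ID for 22128 of 22183 genes, and IgG coding sequences were aligned with MAFFT 7.526. The fit was tested on simulated data. Alternatives were DESeq2 1.42.0, limma 3.58.1 voom, other scalings, no filter, a replicate block and leaving out each mouse.

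The members and lists were chosen with earlier results of these data known. Named were all members and the 5 plasma cell markers used as a reference. For the related lists, up to 3 genes with the largest change among those called were named. So were the 3 genes most correlated with each of Igkc, Ighm and Jchain. 1 gene that this rule names is not reported here.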

Additional observations from a re-analysis of the deposited data

How the results depend on the processing

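With TMM scaling in edgeR 5 members were higher and 4 lower, beside 31.1% and 27.8% of all tested genes. These member counts were the same with DESeq2, limma voom, no TMM, DESeq2's size factors, no filter and the antibody genes left out of the scaling. Scaling to the endothelial markers gave 0 higher and 8 lower, beside 8.55% and 71.5% of all tested genes. Ighm then turned to -0.75, Ighg1 to -0.26 and Igha to -0.68, and Jchain (-0.0901) was not called. Scaling to the B cell markers gave 7 higher and 2 lower, beside 92.1% and 0.428% of all tested genes. The 2 lower were Ighd (-0.50) and Ighe (-1.74), whereas Ighg2c (0.73) and Igkc (0.85) turned to higher. Related genes numbered 23 higher and 37 lower, against 11 and 57 with the endothelial and 59 and 4 with the B cell markers. Of all called genes 52.9% were higher, against 10.7% and 99.5%. The cause was not tested beyond the shift of the median that each scaling brings. In FPKM in place of counts, the heavy chain share changed by -11.8 points for Ighd (-13.6 in counts) and by -2.69 points for the switched isotypes (-1.47 in counts). The 5 genes listed as plasma cell markers, a mixed reference, were also used in place of the B cell markers. Relative to their mean the differences were 0.25 for Ighm, -1.44 for Ighd, 0.74 for Ighg1, -1.02 for Ighg2b, -0.22 for Ighg2c, 1.05 for Ighg3, 0.32 for Igha, -1.52 for Ighe (shrunken by the added 1 CPM), -0.10 for Igkc and 0.91 for Jchain. Leaving out 1 mouse at a time gave 4 to 5 members higher, 4 to 5 lower, and 21 to 23 related genes higher and 33 to 36 lower. Over all 14164 to 14293 genes tested in these fits, 3852 to 4333 were higher and 3121 to 3685 lower.

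Same-numbered replicates deviated together with correlations of 0.188, 0.0671 and -0.274, within the span of -0.411 to 0.356 between unlike numbers. No pairing by number was seen, but 3 libraries per group cannot exclude one. With the replicate number as a block, 5 members were higher and 4 lower, with 23 and 35 related genes, and 4242 genes higher and 3667 lower against 4359 and 3887 without it; the call of no member changed. Low counts limit the precision of Ighe among the members.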

Other observations

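The variable segments, which are no members, were summed per locus. Heavy chain variable segments took 0.0847% ± 0.0063 of all counts in saline mice and 0.0857% ± 0.0025 in PD mice (SD, n = 3), with overlapping ranges. Kappa variable segments took 0.239% ± 0.015 and 0.209% ± 0.011, with every PD mouse below every saline mouse. All immunoglobulin genes and Jchain, which was higher in PD mice, together took 2.38% ± 0.09 and 2.36% ± 0.08. These sums were not tested.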
